A study of Drosophila melanogaster with 8 samples.

Results

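The circadian clock genes of Drosophila melanogaster were examined in RNA from Dh44 neurons of the adult brain. The 10 genes were chosen by name as the core of the fly clock, Clk, cyc, per, tim, vri, Pdp1, cwo, cry, dco and sgg, and all 10 had a value among the 11773 genes measured. Dh44 neurons make diuretic hormone 44, a peptide related to vertebrate corticotropin-releasing factor, and the series studied them as a sensor of dietary amino acids. All 8 libraries belonged to a single group of flies aged 5 days, of genotype DH44-GAL4;UAS-mCD8gfp, raised on normal food. GAL4 made under the control of Dh44 sequences switched on a membrane-bound green fluorescent protein, and fluorescent cells were collected from dissected brains, so that the cells are those in which this driver line was active. The sources used here describe both individual cells and pooled single cells, and give no number of cells or animals per library and no time of day of the dissection.

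In the fly clock, the proteins of Clk and cyc pair and bind E-box elements in the DNA of per, tim, vri, Pdp1 and cwo, whose RNA they drive. The proteins of per and tim return to the nucleus and inhibit that pair, while vri and Pdp1 act in opposite directions on Clk in a second loop and cwo competes at E-boxes. The blue-light receptor encoded by cry resets the loop through degradation of the tim protein, and the kinases encoded by dco and sgg set its pace. RNA of per, tim, vri, Pdp1 and cwo is known to cycle over the day in clock cells, with Clk and cry in a different phase. Clock cells of the fly include some brain neurons, photoreceptors, many glia and the fat body, and Dh44 neurons are known for carrying clock signals towards rest and activity rhythms.

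Values are FPKM, a fragment measure that the authors scaled by exon length and library size, so genes can be set side by side per length. The FPKM of a library summed to between 812029 and 935440.0, and the depth of reading is not known. Dh44 was high in every library (26309 to 99818 FPKM). Between 2518 genes (library 1) and 5256 genes (library 4) reached 1 FPKM. Libraries 1 and 8 stood apart. Library 1 had the fewest genes, and library 8, with 3798 genes at 1 FPKM, had the lowest summed level of 6 neuronal markers (379 FPKM, against 643 to 1714 FPKM elsewhere). A value listed at 0 is not read as absence, because Tbp, a general transcription factor gene that every cell uses, was listed at 0 in 5 libraries. With a single group and no named animals there was no test, and every spread given is that between the 8 libraries.

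Of the 10 clock genes, 8 were detected, defined as 1 FPKM or more in at least 4 libraries. By the same rule 41.2% of all genes measured were detected, or 58.8% of those above 0 in any library. sgg, dco and Pdp1 reached 1 FPKM in all 8 libraries, cwo in 7, vri in 6, and cyc, tim and cry in 5 each. Clk and per each did so in 2. In all, 56 of the 80 clock gene values (70.0%) lay at 1 FPKM or more, against 37.8% of the values of all genes. Libraries differed widely. Library 1 had 4 clock genes at 1 FPKM (Pdp1, cry, dco and sgg), library 3 had 5, libraries 4 and 7 had 7, libraries 2, 6 and 8 had 8, and library 5 had 9. Of all genes, 21.4% reached 1 FPKM in library 1, 34.8% in library 3, 32.3% in library 8 and 40.8% to 44.6% in the others. Under a stricter rule of 1 FPKM in at least 6 libraries, 5 clock genes passed, against 27.5% of all genes.

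**Figure D1:**
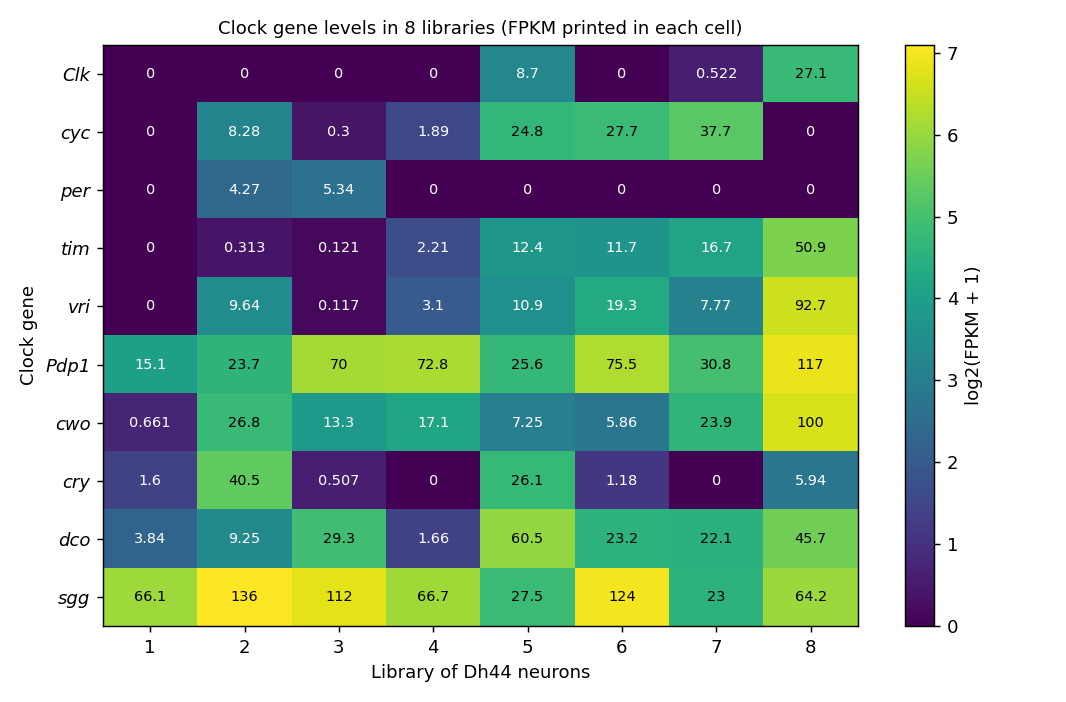
Level of the 10 clock genes (rows) in each of the 8 libraries of Dh44 neurons (columns), coloured by log2(FPKM + 1) with the FPKM printed in each cell. sgg and Pdp1 have a value of 15.1 FPKM or more in every library, Clk and per are listed at 0 in 5 and 6 libraries, and library 8 has the highest Clk, tim, vri, Pdp1 and cwo.

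The activators were uneven. Clk (FBgn0023076) encodes a basic helix-loop-helix protein with PAS domains, and is annotated at 7763233 to 7775603 of chromosome 3L, minus strand. Its level was 27.1 FPKM in library 8, 8.70 in library 5 and 0.522 in library 7, and it was listed at 0 in the other 5 libraries. cyc (FBgn0023094), its partner, is annotated at 19813770 to 19815938 of the same arm, minus strand. Its values were 37.7 FPKM in library 7, 27.7 in library 6, 24.8 in library 5, 8.28 in library 2, 1.89 in library 4 and 0.300 in library 3, and it was listed at 0 in libraries 1 and 8. Library 5 was thus the single library in which both partners reached 1 FPKM. Library 8, with the highest Clk, had cyc at 0. The median of cyc was 5.08 FPKM, and leaving out 1 library at a time moved it between 1.89 and 8.28 FPKM.

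The repressors per and tim did not reach 1 FPKM together in any library. per (FBgn0003068, chromosome X from 2685580 to 2692780, plus strand) had 4.27 FPKM in library 2 against 5.34 FPKM in library 3, and was listed at 0 in the remaining 6. tim (FBgn0014396, chromosome 2L from 3493986 to 3508119, minus strand) was at 50.9 FPKM in library 8, 16.7 in library 7, 12.4 in library 5, 11.7 in library 6 and 2.21 in library 4. In libraries 2 and 3, which had per, it was at 0.313 and 0.121 FPKM, and was listed at 0 in library 1. All 5 libraries with tim at 1 FPKM or more listed per at 0. This is not read as exclusion, since per reached 1 FPKM in only 2 libraries. Each library also listed 5999 to 9094 genes at 0, and the share of other gene pairs without overlap was not computed. The median of tim was 6.97 FPKM, and leaving out 1 library at a time moved it between 2.21 and 11.7 FPKM. Of the exons of tim, 7.74% overlap an antisense noncoding gene and 2.15% a small nucleolar RNA of the same strand, and reads in those parts cannot be assigned. None of the libraries held all of Clk, cyc, per and tim at 1 FPKM. Library 5 held 3 of these 4 genes, libraries 2, 4, 6, 7 and 8 held 2, library 3 held 1 and library 1 none.

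In the second loop Pdp1 and cwo were above 0 in every library, whereas vri was not. Pdp1 (FBgn0016694, chromosome 3L from 7811458 to 7867369, minus strand) encodes a basic leucine zipper activator of Clk that also has functions outside the clock, in growth and in muscle. Its values were 15.1 FPKM in library 1, 23.7 in library 2, 70.0 in library 3, 72.8 in library 4, 25.6 in library 5, 75.5 in library 6, 30.8 in library 7 and 117 in library 8, with a median of 50.4 FPKM. Apart from library 8, they fell at 15.1 to 30.8 FPKM in 4 libraries and at 70.0 to 75.5 FPKM in 3, so that leaving out 1 library moved the median between 30.8 and 70.0 FPKM. 88.7% of all genes had a lower median. vri (FBgn0016076, chromosome 2L from 5288944 to 5311223, plus strand), whose basic leucine zipper protein represses Clk, was lower than Pdp1 in all 8 libraries. It was at 9.64 FPKM in library 2, 0.117 in library 3, 3.10 in library 4, 10.9 in library 5, 19.3 in library 6, 7.77 in library 7 and 92.7 in library 8, and was listed at 0 in library 1. In the 7 libraries with both genes above 0, Pdp1 was 1.26 to 596 times as high as vri, with the smallest ratio in library 8 and the largest in library 3, where vri was near 0. cwo (FBgn0259938, chromosome 3R from 10388258 to 10400752, plus strand), a basic helix-loop-helix repressor at E-boxes, had 0.661 FPKM in library 1, 26.8 in library 2, 13.3 in library 3, 17.1 in library 4, 7.25 in library 5, 5.86 in library 6, 23.9 in library 7 and 100.4 in library 8. Its median was 15.2 FPKM. cwo exceeded vri in 6 of 8 libraries, and vri exceeded cwo in libraries 5 and 6.

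The light receptor gene cry (FBgn0025680, chromosome 3R from 19212154 to 19215442, plus strand) was high in libraries 2 and 5, at 40.5 and 26.1 FPKM. It was at 5.94 FPKM in library 8, 1.60 in library 1, 1.18 in library 6 and 0.507 in library 3, and was listed at 0 in libraries 4 and 7. tim and cry each reached 1 FPKM in 5 libraries, which were not all the same. Libraries 4 and 7 had tim at 1 FPKM or more with cry listed at 0. Libraries 1 and 2 had cry at 1 FPKM or more with tim below it. This is not read as exclusion, since libraries 4 and 7 listed 5999 and 6110 genes at 0. The share of other gene pairs that differ in this way was not computed. A noncoding gene on the same strand overlaps 17.4% of the exons of cry, which leaves that part of its value uncertain.

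The kinases dco and sgg, which also act outside the clock, were present throughout. sgg (FBgn0003371, chromosome X from 2633952 to 2679553, plus strand) encodes the fly glycogen synthase kinase 3, which phosphorylates the tim protein and works in Wnt and insulin signalling. It was the highest clock gene by median (66.4 FPKM), with 66.1 FPKM in library 1, 136 in library 2, 112 in library 3, 66.7 in library 4, 27.5 in library 5, 124 in library 6, 23 in library 7 and 64.2 in library 8. A noncoding gene on the same strand overlaps 11.8% of its exons. dco (FBgn0002413, chromosome 3R from 31054085 to 31061210, minus strand), also called doubletime, encodes a casein kinase 1 that phosphorylates the per protein. It was at 3.84 FPKM in library 1, 9.25 in library 2, 29.3 in library 3, 1.66 in library 4, 60.5 in library 5, 23.2 in library 6, 22.1 in library 7 and 45.7 in library 8. sgg exceeded dco in 7 of 8 libraries, by 1.04 to 40.2 times, and in library 5 dco was higher.

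By median FPKM the order was sgg (66.4), Pdp1 (50.4), dco (22.7), cwo (15.2), vri (8.71), tim (6.97), cyc (5.08), cry (1.39), and Clk and per at 0. Every pair of neighbours in this order had overlapping ranges. sgg exceeded Pdp1 in 5 of 8 libraries, and dco exceeded cwo in 4 of 8. tim exceeded cyc in 2 libraries and fell below it in 5, against the order of their medians. Among 201 genes of the most similar mean log2(FPKM + 1), the SD over libraries was lower than that of the clock gene for 18.9% of genes with sgg (SD 0.94), 18.4% with Pdp1 (SD 1.02), 14.9% with dco (SD 1.59) and 14.9% with cwo (SD 1.73). These 4 genes thus varied less than most genes of their level, whereas vri, tim, cry, cyc and Clk lay nearer the middle of theirs, at 42.8%, 39.3%, 40.8%, 55.7% and 57.7%. per lay at 23.9%, with 6 values at 0.

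Library 8 had the highest value of 5 of the 10 clock genes, namely Clk, tim, vri, Pdp1 and cwo. Of all genes above 0 in any library, 12.8% had their highest value there. Library 8 was noticed from earlier results of these data, so its values are a description. tim was 23 times the median of the other 7 libraries (2.21 FPKM), vri 11.9 times (7.77 FPKM), cwo 7.55 times (13.3 FPKM) and Pdp1 3.79 times (30.8 FPKM). These ratios depend on which libraries stand for the rest. Leaving out any 1 of the other libraries put tim at 7.30 to 40.3 times, vri at 10.6 to 17.1 times, cwo at 6.61 to 9.78 times and Pdp1 at 2.32 to 4.14 times, an alternative chosen after seeing the data. Without library 1 they were 7.30, 10.6, 6.61 and 2.32 times. In each of these genes the value of library 8 lay above every other library: the next highest was 16.7 FPKM for tim, 19.3 for vri, 26.8 for cwo and 75.5 for Pdp1. Clk was next highest at 8.70 FPKM in library 5. dco was 2.06 times its median elsewhere but higher still in library 5, sgg was 0.962 times, and cyc and per were listed at 0 in library 8.

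In library 8 most clock genes lay above their level elsewhere, while most detected genes lay below theirs. On the log2(FPKM + 1) scale, library 8 differed from the median of the other 7 libraries by a median of 1.78 for the 8 detected clock genes, and by -1.17 for all 4846 detected genes. Of the 8, 6 lay above the median of the other libraries and 2, cyc and sgg, below it. Of all detected genes 35.7% lay above. The same 8 clock genes passed the detection rule without library 8. tim, vri and cwo had a gap to the next library larger than Dixon's 95% critical value for 8 samples, which 4.15% of detected genes had with library 8 highest. The direction of sgg, at -0.06, turned to 0.11 when the values were rescaled without ribosomal protein genes and genes with short exons.

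**Figure D2:**
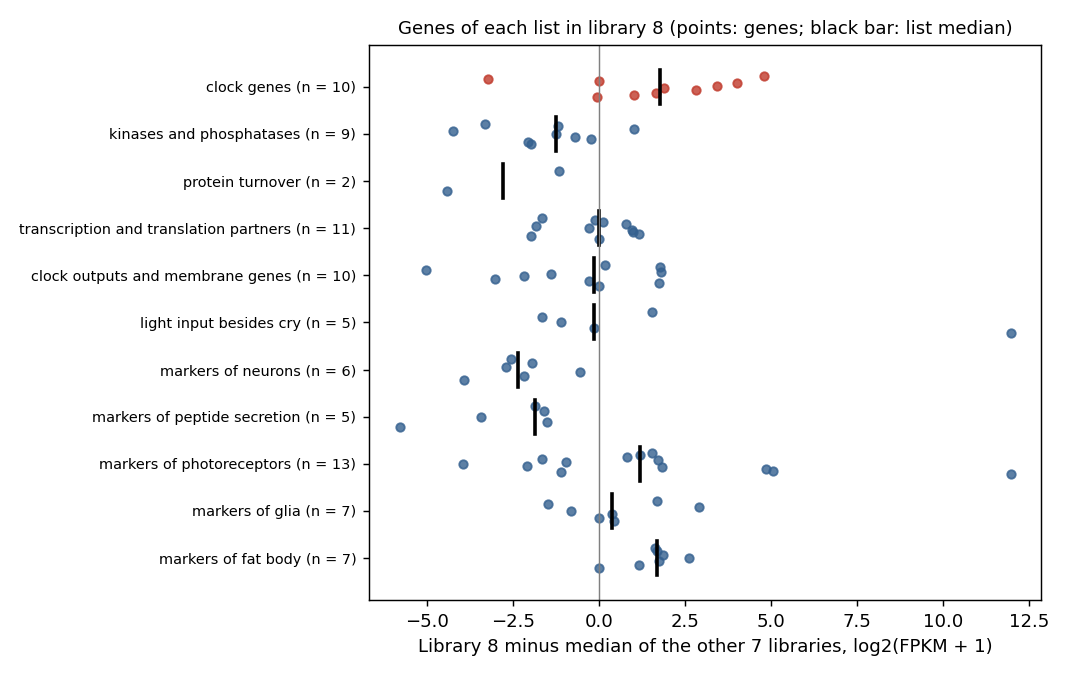
Difference between library 8 and the median of the other 7 libraries in log2(FPKM + 1), with 1 point per gene and a black bar at the median of each list. The median of the 10 clock genes is 1.78, that of neuronal markers is -2.36, and that of fat body markers is 1.69.

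Markers of other cell types moved in library 8 as well, and their part in the clock gene values was not tested. Fewer cells of a type and less RNA per cell cannot be told apart in such libraries. The 13 photoreceptor markers summed to 7928 FPKM in library 8 against 801 to 2189 FPKM elsewhere, and to 3933 FPKM without the opsin gene Rh5. They did not move as a block: 7 of 13 were highest in library 8, including ninaE, Arr2, trp and chp, whereas Rh3, Rh6 and inaD were listed at 0 there and norpA was lowest there at 7.99 FPKM. The 7 fat body markers summed to 68397 FPKM against 14216 to 56796 FPKM elsewhere, and 4 of them were highest in library 8. Of these 4, Fbp1 was at 1.23 FPKM. Library 1 was alike, with fat body markers at 6.99% of its summed FPKM against 7.31% in library 8. The 7 glial markers summed to 260.0 FPKM, within the 47.9 to 338 FPKM of the other libraries, and the glial factor repo was listed at 0. The 5 hemocyte markers (158 FPKM) lay within the range of the others (20.6 to 283 FPKM), and the 8 muscle markers (308 FPKM) above it (29.0 to 204 FPKM). Most of the muscle sum was Mlc1: without it the sum was 45.8 FPKM, within the 22.1 to 149 FPKM of the others, and 3 of the 8 markers lay above the median of the other libraries and 4 below. Of the clock neuron markers, Pdf and sNPF had values. Pdf was highest in library 8 at 89.5 FPKM and sNPF was listed at 0 there, and their sum of 89.5 FPKM lay within the 0 to 98.2 FPKM of the other libraries. Peptide secretion markers summed to 2813 FPKM in library 8 against 6573 to 11957 FPKM elsewhere, and the 4 insulin cell markers to 1066 FPKM against 1137 to 32919 FPKM. Dh44 itself was at 26309 FPKM, its lowest value.

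**Figure D3:**
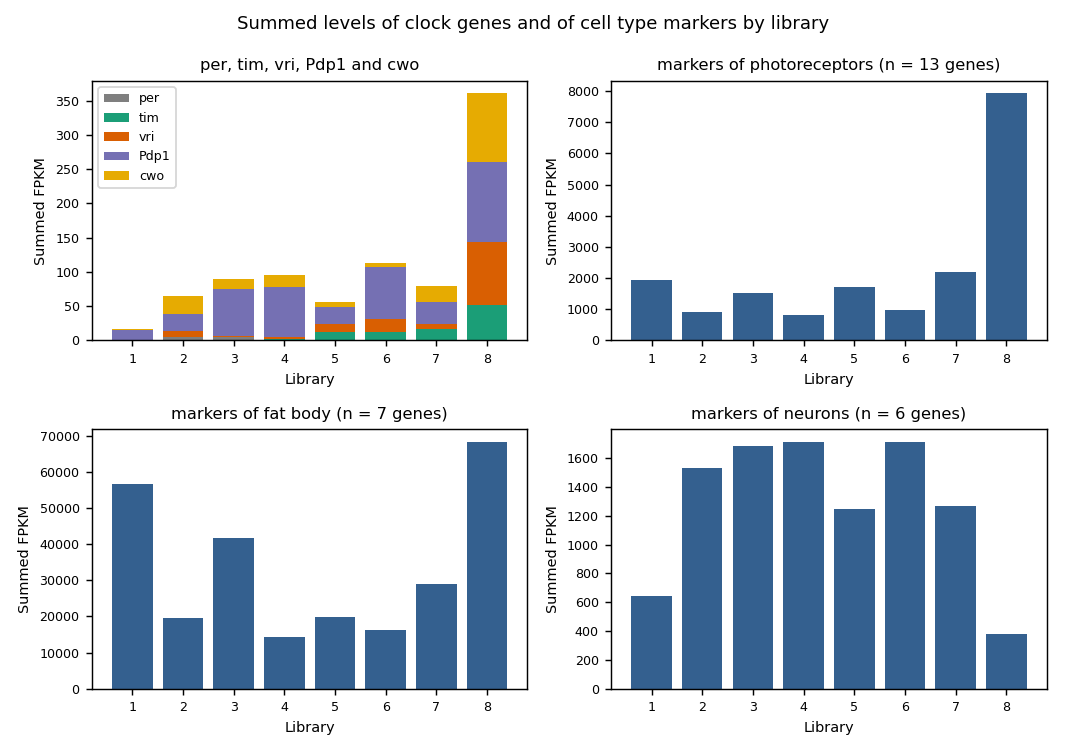
Summed FPKM by library of the clock genes per, tim, vri, Pdp1 and cwo (stacked) and of the markers of photoreceptors, fat body and neurons, each panel on its own axis from 0. The sum of the 5 clock genes is 361 FPKM in library 8 and 15.8 to 112 FPKM in the others, while the neuronal sum is lowest in library 8.

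Outside library 8 the clock genes followed other patterns. In libraries 5, 6 and 7 tim was at 11.7 to 16.7 FPKM, and the 3 highest values of cyc (24.8 to 37.7 FPKM) were in the same libraries. In libraries 1 to 4 tim was at 0 to 2.21 FPKM and cyc at 0 to 8.28 FPKM. Over the 7 libraries without library 8, the Pearson correlation of log2(FPKM + 1) was 0.93 between cyc and vri, 0.89 between cyc and tim and 0.75 between tim and vri. Over all 8 these values were 0.31, 0.36 and 0.85, so the 2 values with cyc depended on library 8. The 3 genes share low points, since in libraries 1 and 3 each was at 0.300 FPKM or less. per and tim had a correlation of -0.62 over the 8 libraries. These are descriptions of 8 points at most, taken from 45 pairs, and the points share the composition of each library.

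The genes whose pattern over the 8 libraries was most like that of each detected clock gene were taken from 3152 genes whose log2(FPKM + 1) averaged at least 3, 3 per clock gene. For tim these were CG5292 (r = 0.94), CG10616 (0.93) and CG6833 (0.92), and for vri CG9331 (0.96), CG8818 (0.94) and again CG5292 (0.94). Pdp1 was most like srp (0.95), Pcf11 (0.94) and CG2124 (0.93), and cwo was most like CG11737 (0.96), CG11594 (0.94) and Hf (0.93). srp encodes a GATA factor of hemocytes and fat body and is on the hemocyte list, at 2.95 to 45.5 FPKM. Of these 12 places, 11 were taken by genes highest in library 8, against 12.8% of all genes above 0 in any library. The choice itself favours this, since tim, vri, Pdp1 and cwo are all highest there, and CG5292 is counted for both tim and vri. cyc was most like CG6013 (0.97), CG8032 (0.96) and CG34263 (0.95), all listed at 0 in libraries 1, 3 and 8. dco was most like CG16772 (0.93), janA (0.92) and Nadk2 (0.90), and sgg like Mhcl (0.96), E(bx) (0.84) and spri (0.84). cry had the weakest likenesses, to RpL29 (0.80), Moe (0.80) and Sec61gamma (0.79). Without library 8, 5 of the 24 places were filled by the same genes, so the likenesses were not stable. Leaving out other libraries was not tried.

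Genes known to act on or with the clock were examined from 5 lists. Of 37 measured, 31 (83.8%) were detected, against 41.2% of all genes, or 58.8% of those above 0 in any library. The 12 listed genes without a value were not analysed here. All 9 kinases and phosphatases measured were detected, and several exceeded every clock gene by median. mts, the catalytic subunit of protein phosphatase 2A, had a median of 286 FPKM (27.9 to 352), and CkIalpha, a casein kinase 1 other than dco, had 192 FPKM (75.4 to 389.9). The casein kinase 2 subunit genes CkIIbeta and CkIIalpha, whose kinase phosphorylates the per protein, had medians of 131 FPKM (6.13 to 218) and 91.9 FPKM (0 to 301). Pp1alpha-96A, a protein phosphatase 1 gene, was at 171 FPKM (82.9 to 331). In library 8, 8 of the 9 lay below the median of the other libraries, as did 64.3% of all detected genes, and Pp1alpha-96A was highest there. The F-box protein genes slmb and jet, which direct the per and tim proteins to degradation, were the 2 turnover genes measured. slmb had a median of 27.0 FPKM and was at 0.807 FPKM in library 1. jet had a median of 10.4 FPKM and was listed at 0 in libraries 1, 6 and 8.

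Transcription and translation partners were detected in 10 of 11 cases, against 58.8% of all genes above 0 in any library. The RNA-binding protein gene lark had a median of 71.8 FPKM (25.7 to 105), the nuclear receptor gene Eip75B 59.0 FPKM (19.8 to 63.9) and the RNA-binding protein gene Rbp9 46.0 FPKM (23.9 to 75.5). Atx2, which promotes translation of per RNA, was at 22.1 FPKM (6.82 to 45.5), and Fmr1, a translational regulator, at 18.7 FPKM (3.86 to 36.4). Each of these 5 reached 1 FPKM in all 8 libraries, which the choice favours, since they were named for the highest medians of their list. Lower in the list, tai, brm and nej also reached 1 FPKM in all 8 libraries, whereas kay did so in 6 and pnt in 4. Hr51, a nuclear receptor gene, reached 1 FPKM in library 6 alone, at 2.22 FPKM. In library 8, 5 of the 11 lay above the median of the other libraries and 5 below. Of all detected genes, 35.7% lay above and 64.3% below.

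Of 10 output and membrane genes measured, 7 were detected, against 58.8% of all genes above 0 in any library. qvr, a regulator of the Shaker potassium channel known from sleep, led with a median of 72.9 FPKM (11.8 to 106). Pdf, the peptide of the ventral lateral clock neurons, was at 52.5 FPKM in library 2, 51.1 in library 3, 59.8 in library 4, 25.4 in library 5, 3.82 in library 7 and 89.5 in library 8, and was listed at 0 in libraries 1 and 6. Pdf was therefore found both in libraries with tim at 1 FPKM or more and in libraries 2 and 3, where tim was lower. The potassium channel gene Shaw had a median of 25.5 FPKM (0 to 68.2) and slo, a calcium-activated potassium channel gene, 24.7 FPKM (0 to 85.1, highest in library 8). unc79, an accessory subunit gene of the sodium leak channel, was at 11.7 FPKM (4.32 to 27.6), whereas na, the channel gene itself, reached 1 FPKM in libraries 4, 5 and 6. The clock output genes to and E23 were not detected: to reached 1 FPKM in 3 libraries and E23 in none.

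Of 5 further light input genes, 3 were detected, against 58.8% of all genes above 0 in any library. norpA, the phospholipase C gene of phototransduction, had a median of 26.1 FPKM (7.99 to 52.8), and the opsin genes ninaE and Rh6 had medians of 925 and 0.573 FPKM. These 3 genes and Rh5 are also on the photoreceptor list, and ninaE was at 338 FPKM or more in every library. Which cells their RNA came from was not tested. Rh7, an opsin gene with a described role in clock neurons, was at 7.07 FPKM in library 6, 1.48 in library 5 and 1.33 in library 2, and was below 1 FPKM in the other 5. Rh5 was at 3995 FPKM in library 8, 7.81 in library 2 and 6.62 in library 5, and at 0 in the rest.

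**Figure D4:**
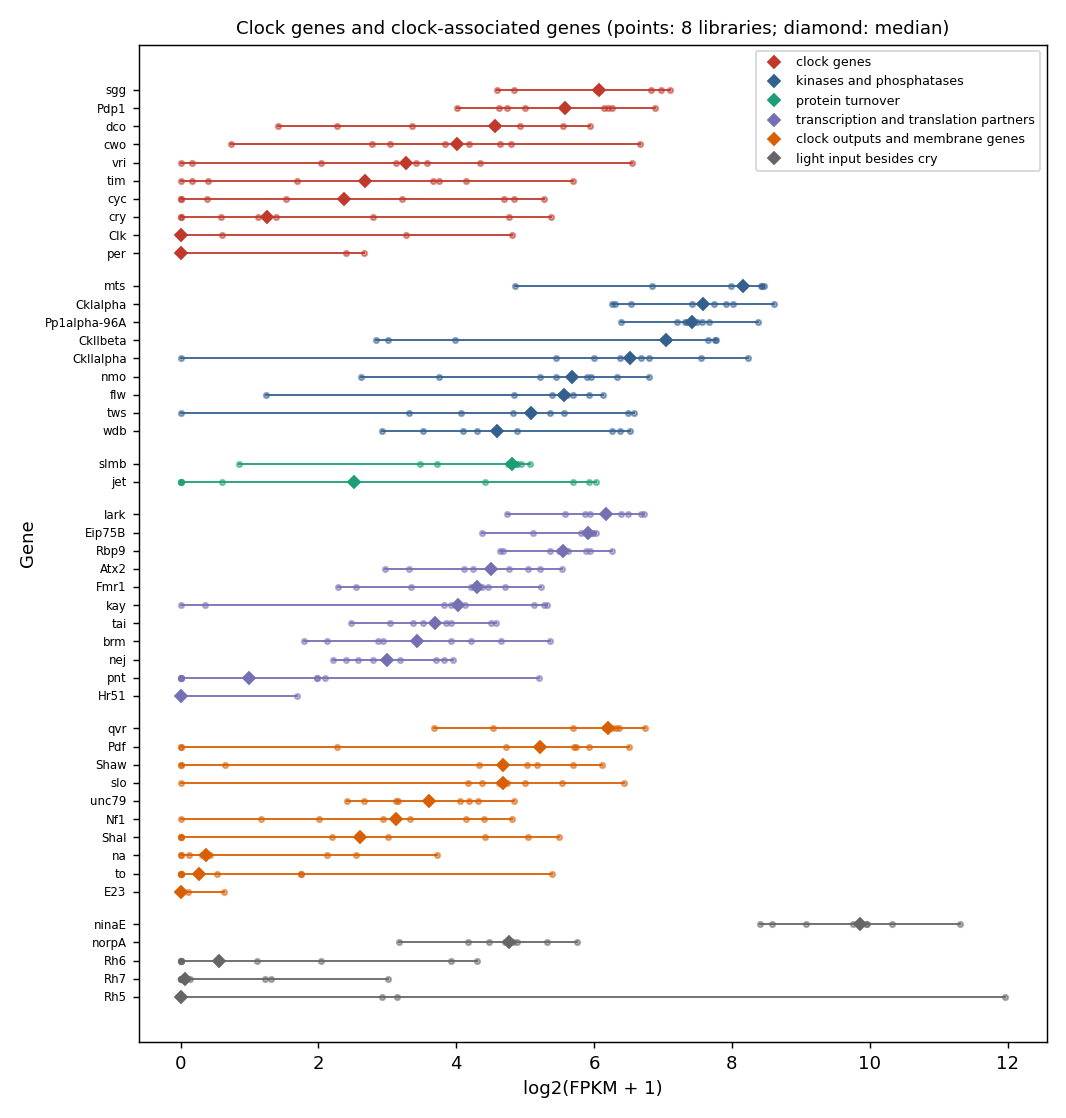
Level of the clock genes and of the 5 lists of clock-associated genes, on the scale of log2(FPKM + 1), with 8 points per gene for the libraries, a line over their range and a diamond at the median. Kinases and phosphatases have medians of 23.6 to 286 FPKM, while Clk and per have a median of 0.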

How the data were processed

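RNA from Dh44 neurons was sequenced in 8 libraries after amplification, shearing to about 250 bp and 12 PCR cycles, per the labels' protocols. The authors deposited 1 FPKM value per gene and library. Reads were trimmed and mapped to the fly genome, per the labels, and TopHat is named in the submitters' processing notes. For its version, the build, the annotation and strand, the entry is: not given in the sources used here. Values above 0 reached down to 9.13e-317 FPKM, so whole reads were not recovered and no counting interval is given.

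Of 11773 gene identifiers, 11646 had a symbol. Coordinates and exon overlaps come from Ensembl release 115 (BDGP6.54), which may differ from the authors' build. A gene was detected at 1 FPKM in at least 4 of 8 libraries, and logarithms used a pseudocount of 1. The members, gene lists and rules for named genes (all members, up to 5 genes per list by median, 3 most similar genes by Pearson correlation) were chosen with earlier results of these data known. Further genes named from the lists (tai, brm, nej, kay, Hr51, pnt, na, to, E23) were chosen after their values were seen. Promoter motifs were not analysed here. Steps were tested on simulated data. Python 3.11.15, pandas 2.3.3 and numpy 2.4.6 were used.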

Additional observations from a re-analysis of the deposited data

Results flagged for a closer look

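For each of 47 genes, the 10 clock genes and the 37 clock-associated ones, both extreme libraries were set against the remaining libraries. In 12 genes 1 library stood apart by a gap, relative to the range, above Dixon's 95% critical value. About 1 in 20 groups of normal values would do so by chance, but FPKM is skewed. Of the 39 detected genes among the 47, 5 (12.8%) had such a gap, below the 21.6% of all detected genes. The other 7 were Clk, Rh5 and further genes not detected by the rule. Library 8 accounted for 6 of the 12. They were Clk at 27.1 FPKM, tim at 50.9 FPKM, vri at 92.7 FPKM, cwo at 100.4 FPKM, ninaE at 2543 FPKM and Rh5 at 3995 FPKM. Of the others, pnt, an ETS factor gene, was highest in library 1 at 35.9 FPKM and to in library 3 at 40.8 FPKM. na was highest in library 4 at 12.2 FPKM and E23 in library 5 at 0.550 FPKM. Rh7 and Hr51 were highest in library 6, at 7.07 and 2.22 FPKM. The last 5 of these genes (to, na, E23, Rh7 and Hr51) reached 1 FPKM in 0 to 3 libraries.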

How the results depend on the processing

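The number of clock genes detected was 7 to 10 under the other settings tried and 5 when 6 libraries were required. Detected clock-associated genes numbered 26 to 35. Of all genes, 54.6% passed at 1 FPKM in 2 libraries, 45.3% at 0.1 FPKM in 4, 34.2% at 5 FPKM in 4 and 27.5% at 1 FPKM in 6. In that order, 10, 8, 7 and 5 clock genes passed, and 35, 33, 29 and 26 clock-associated genes. Rescaling each library to the same sum moved detected genes by a median of 0.15 on the log2 scale, and rescaling without ribosomal protein genes and genes with exons under 250 bp by 0.61, which also took the median of sgg to 117 FPKM. The count of clock genes highest in library 8 was 5 under both scalings. The median difference of library 8 for detected clock genes ranged from 1.33 to 2.17. That of Clk was 4.81 with a pseudocount of 1, 8.09 with 0.1 and 2.68 with 5, since its median elsewhere was 0, and is no bound. That of cyc was -3.21, and -6.39 with 0.1 and -1.41 with 5. That of sgg turned from -0.06 to 0.11 under the second scaling. Of 24 places for the most similar genes, 12 were shared when the floor on mean level was replaced by 1 FPKM in at least 4 libraries. Without library 8, 5 were shared. No paired analysis was possible because all libraries form a single group. Depth is unknown, so a gene listed at 0 may lie below detection.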

Other observations

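Members of the clock lie near each other at 2 places in the BDGP6.54 annotation, and their levels differed there. Clk and Pdp1 are on the minus strand of chromosome 3L with 35854 bp and 2 annotated features (a gene and a transposable element) between them. Pdp1 was at 15.1 FPKM or more in every library and Clk was listed at 0 in 5. sgg and per are on the plus strand of chromosome X with 6026 bp and 3 annotated genes between them. sgg was at 23 FPKM or more in every library and per was listed at 0 in 6. The exons of neither pair overlap in that annotation.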
